A study of Ooceraea biroi with 96 samples.

Results

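In 5 of 29 brains of 1-day-old clonal raider ants reared with lineage M, a single protein-coding gene, LOC105279483, stood at 14859 to 26391 CPM (counts of the gene per megacount of the library). In the other 24 brains it stood at 214 to 357 CPM. Brains were selected on the measured level of this gene: those at 1000 CPM or more are called high here and the remaining 24 are called other. The lowest high brain stood 41.7-fold above the highest other brain, and no brain lay between 357 and 14859 CPM. The question was which other genes went with the high state. Apart from LOC105279483 and the gene inside it, edgeR's quasi-likelihood test called 0 of 9792 genes (0%) at an adjusted p under 0.05.

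The clonal raider ant (Ooceraea biroi) has no queens, and its workers reproduce without mating, so that nestmates of a lineage share nearly the same genotype. Workers that have just emerged from the pupa are called callows. Over their first days the cuticle darkens and hardens, and the brain, with its large mushroom bodies that process odour and memory, goes on maturing. No product name or function of LOC105279483 or of the other genes described here was given in the tables used, so genes are described by identifier, position, class and level.

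Newly hatched larvae of lineage B or M were raised in colonies of either lineage, and single whole brains were sequenced at an age of 1 or 8 days in 96 libraries. Groups are written as genotype in environment. The 29 brains were 9 BinM (genotype B raised with lineage M) and 20 MinM (genotype M raised with its own lineage), all 1 day old. They are set beside 21 day 1 brains raised with lineage B (7 BinB and 14 MinB) and 46 brains of day 8 (10 BinB, 12 MinB, 10 BinM and 14 MinM). Each library is 1 individual, and which individuals shared a colony is not known here. The high state was read from the libraries themselves and is not a treatment, so the level of LOC105279483 in high against other brains is given as a description with no test. The labelled tissue could not be checked against brain markers, because no names were given for such genes.

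LOC105279483 lies at chromosome 9, 15605082 to 15639359, on the forward strand (coordinates of the deposited table, which equal those of the RefSeq annotation Obir_v5.4). It spans 34.3 kb with 7 exons that add up to 5006 bases, of which the last exon (15635879 to 15639359, 3481 bases) holds 69.5%. The longest intron is 14.5 kb. Only 1 gene of the table, LOC113562665, lies beyond it on that chromosome, so the locus is next to last before the chromosome's end. Counts were per gene, so the exons behind the counts of the high brains were not analysed here.

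Among BinM brains the gene reached 26391 CPM in replicate 6 and 17273 CPM in replicate 9. Among MinM brains it reached 17782 CPM in replicate 1, 14859 CPM in replicate 2 and 18475 CPM in replicate 18. The high brains of the 2 genotypes overlapped in level, and the highest exceeded the lowest by 1.78-fold. Each high brain stood 54.5- to 96.4-fold above the median of the other brains of its own group, which was 274 CPM in BinM and 273 CPM in MinM. Over the 29 brains the mean was 18956 CPM ± 4374 (SD, n = 5) in high and 278 CPM ± 33.2 (SD, n = 24) in other brains, a 68.3-fold difference of means. The values nearest to the threshold of 1000 CPM were those of MinM replicate 2 (14859 CPM) above it and of MinM replicate 16 (357 CPM) below it. In brain tissue measured whole, more RNA per cell and more cells that hold the RNA cannot be told apart.

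**Figure D1:**
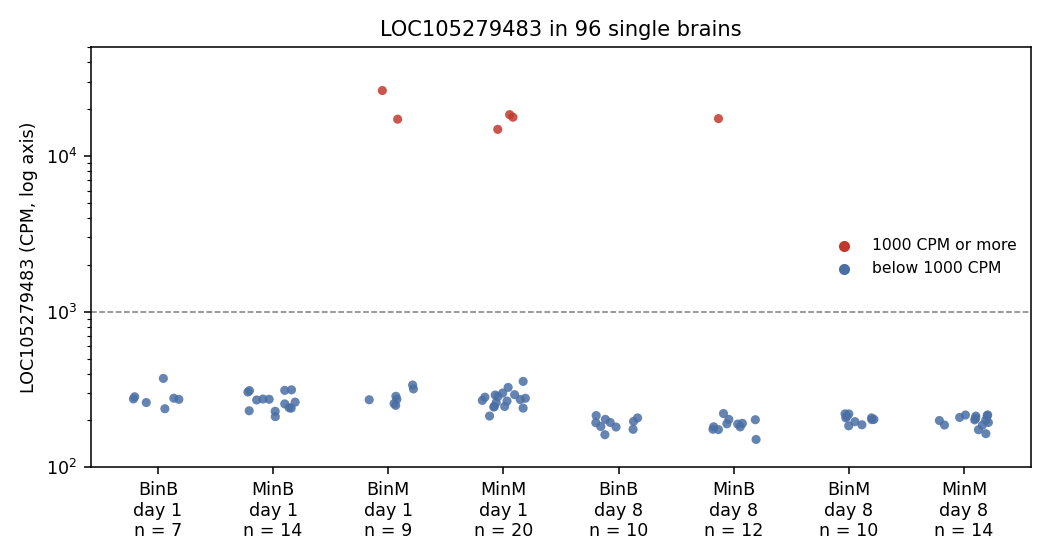
Level of LOC105279483 in each of 96 brains (CPM, log axis) by group, each point a library and the dashed line the threshold of 1000 CPM. The 5 high day 1 brains and the 1 high day 8 brain lie between 14859 and 26391 CPM, and the other 90 lie between 151 and 373 CPM.

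In the high brains this gene alone took 1.49% to 2.64% of all counts, or 295569 to 442582 counts. Per kilobase of exon it ranked first among 13755 features in 4 of the 5 high brains, at 3450 to 5272 CPM per kb. In MinM replicate 2 it ranked second, at 2968 CPM per kb, behind LOC105281018 at 3229 CPM per kb. In the other 24 brains its rank per kilobase ran from 707 to 1449, at 42.7 to 71.2 CPM per kb. A gene of moderate level in most brains was thus at or next to the top of the transcriptome in 5.

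Among the 24 other brains LOC105279483 varied about as much as genes of its level. Its coefficient of variation was 12%, and the median over 786 genes with a mean within 1.5-fold of it was 12.6%. Of those genes, 46.8% varied less. Among the 5 high brains the coefficient of variation was 23.1%. The 24 brains were chosen for a low level of this gene, which leaves out its highest values, while the other genes kept theirs. The comparison is therefore a description and does not show that the gene is even.

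The split into separate levels was set beside that of all other genes. For each of 8937 genes that averaged 1 CPM or more over the 29 brains, the widest gap between neighbouring brains was taken on the scale log2(CPM + 1), with at least 2 brains on each side. The gap was 5.38 for LOC105279483, and the next widest was 3.02 for LOC105285601, in which 2 MinM brains stood at 18.8 CPM or more and the rest at 1.44 CPM or less. The median gap of all genes was 0.11. A gap of at least 2 occurred in 9 genes, and in 5 of these it separated the genotypes, with all MinM brains on one side and all BinM brains on the other. LOC105279483 was the only gene among the 8937 whose widest gap put exactly these 5 brains on top. Since the gene was chosen for this pattern, the ranking is a description.

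**Figure D2:**
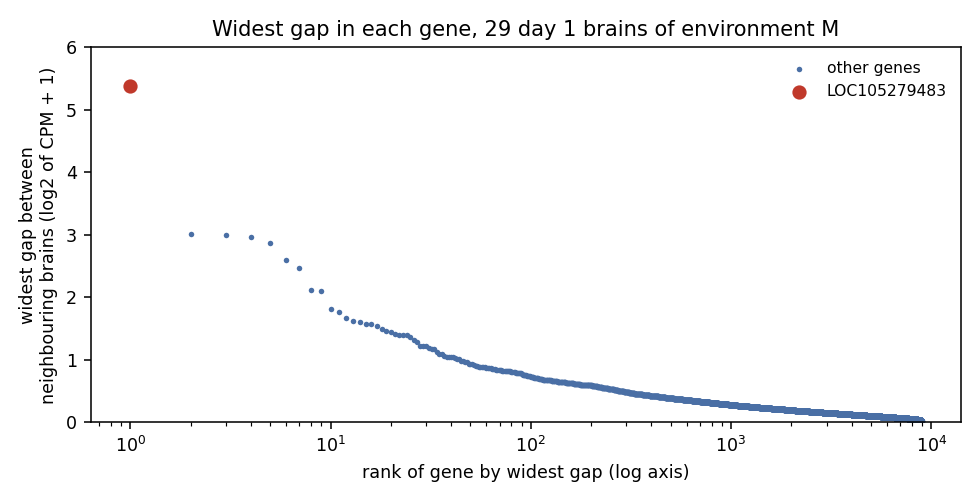
Widest gap between neighbouring brains in log2(CPM + 1) (vertical axis) against the rank of the gene by that gap (log axis), for 8937 genes in 29 day 1 brains of environment M, each point a gene. LOC105279483 has a gap of 5.38 and the next gene 3.02, where the median gene has 0.11.

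Outside the 29 brains the high level occurred once. At day 8, MinB replicate 7 stood at 17419 CPM, within the range of the day 1 high brains and 91.9-fold above the median of the other MinB brains of that age (190 CPM). None of the 21 day 1 brains raised with lineage B was high (at most 373 CPM). This allows a share of up to 14.3% by the limit of 3 counts, or 16.1% by the 95% exact interval. The share in the 29 brains was 17.2% (95% exact binomial interval 5.85% to 35.8%), with 2 of 9 BinM and 3 of 20 MinM. At day 8, 0 of 24 brains of environment M were high, which allows up to 12.5% (14.2% by the exact interval), and 1 of 22 of environment B. High brains thus occurred in both genotypes, both environments and both ages. The environments were not tested against each other, because the comparison was chosen with these values known.

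Below the threshold most day 1 brains stood above those of day 8. It stood at 275 CPM ± 34.7 (SD, n = 45) at day 1, with a range of 211 to 373 CPM, and at 196 CPM ± 16.6 (SD, n = 45) at day 8, with a range of 151 to 222 CPM. Only 2 of the 45 day 1 brains lay below the highest of day 8. At day 1 the group means below the threshold were 283 CPM in BinB, 267 CPM in MinB, 285 CPM in BinM and 275 CPM in MinM, closer to each other than the SD within a group (32.4 to 42.3 CPM). At day 8 they ran from 188 CPM in MinB to 204 CPM in BinM. In all 43 environment B libraries the log2 fold change of day 8 over day 1 was 1.27 ± 0.56 (SE, edgeR adjusted p = 0.0495). Without the high MinB brain it was -0.67, so 1 library decided the direction. The latter value has no test, since that brain was left out for its level of this gene.

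The genes around LOC105279483 did not share its level. The nearest gene before it, LOC105279489, lies 0.364 kb away on the opposite strand. Its level was 138 CPM ± 6.92 in the high (SD, n = 5) and 142 CPM ± 13 in the other brains (SD, n = 24) (log2 fold change -0.05 ± 0.05 SE, edgeR adjusted p = 0.9999). On the far side, LOC113562665, 16.6 kb away, had 1.58 CPM ± 0.479 in the high (SD, n = 5) and 1.57 CPM ± 0.734 in the other brains (SD, n = 24). All 11 neighbours, 10 before and 1 after within 45.8 kb, had log2 fold changes between -0.25 and 0.11. Of these, 0 were called (edgeR) and 0 had an unadjusted p under 0.05. Over the 760 other genes tested on chromosome 9, 10 had an unadjusted p under 0.05 (1.32%), near the share over all genes (1.64%).

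The lncRNA LOC105279482 (15632118 to 15632528, reverse strand) lies inside LOC105279483, within intron 4, and shares 0 exon bases with it. It had 1 count over the 5 high brains, where LOC105279483 had 1681763, and 21 counts over the 24 other brains. At this depth the high level of the host gene was not accompanied by counts in the gene within its intron. Whether the counting used strand is unknown here, so these counts show only what was assigned to the annotated exons.

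**Figure D3:**
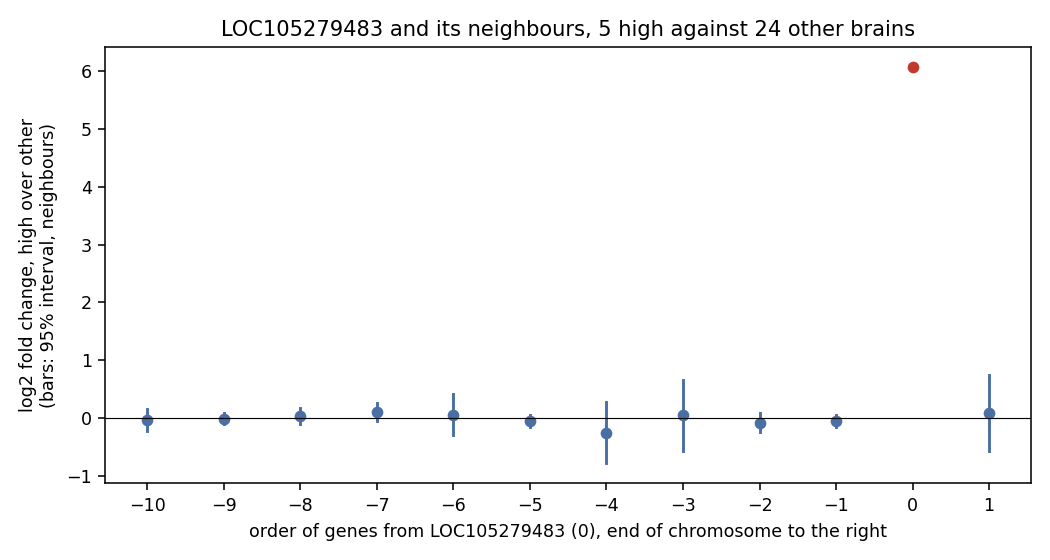
Log2 fold change of 5 high over 24 other brains (vertical axis) for LOC105279483 at position 0, with no interval because it chose the brains, and its 11 neighbours in order along the chromosome, with bars for 95% intervals. The gene stands at 6.07 and its neighbours between -0.25 and 0.11.

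The high brains did not stand apart in depth. Their library totals ran from 16.77 to 19.89 megacounts (mean 17.92 ± 1.249 SD, n = 5), inside the range of 13.9 to 22.86 megacounts of the other brains (mean 17.6 ± 2.85 SD, n = 24; exact permutation p = 0.794, two-sided). They held 10890 to 11072 genes with at least 1 count, and the other brains 10536 to 11231 (exact permutation p = 0.291, two-sided). Across 8936 genes without LOC105279483, profiles of high brains correlated with each other at a mean Pearson r of 0.983 over 10 pairs on the log2 scale. Pairs of a high and an other brain averaged 0.980 over 120 pairs, and pairs of other brains 0.976 over 276. Pairs share brains, so the values are descriptions. The 1 library that stood apart in mean correlation, MinM replicate 16, was not high.

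The main comparison fitted all genes in the 29 libraries, with genotype in the model. It answered whether any gene differed between the 5 high and 24 other brains. LOC105279483, which chose the brains, and the lncRNA inside it were left out of the counts. Among the remaining 9792 genes, edgeR, DESeq2 and limma-voom each called 0. An unadjusted p under 0.05 was reached by 161 genes in edgeR (1.64%), 207 in DESeq2 and 121 in limma-voom, where 490 would fall under that limit if p-values were uniform. Of the 161, 78 were higher (0.797% of those tested) and 83 lower (0.848%) in high brains. No gene had all 5 high brains above all 24 others (0%), and none had all 5 below (0%). These shares used CPM of both genotypes together without adjustment, so a large difference between genotypes could hide a split by state.

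The intervals bound what could have differed. The 95% interval of the high over other ratio lay within 1.5-fold for 7382 of 9792 genes (75.4%), within 2-fold for 8629 (88.1%) and within 4-fold for 9544 (97.5%). Among the 6804 genes that averaged 10 CPM or more these shares were 92.9%, 98% and 99.3%. The median half-width of an interval was 0.23 on the log2 scale. For weakly expressed genes and for genes that varied widely among brains, a 2-fold difference was not detectable with 5 high brains at this depth. P-values and intervals treat individuals as independent.

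**Figure D4:**
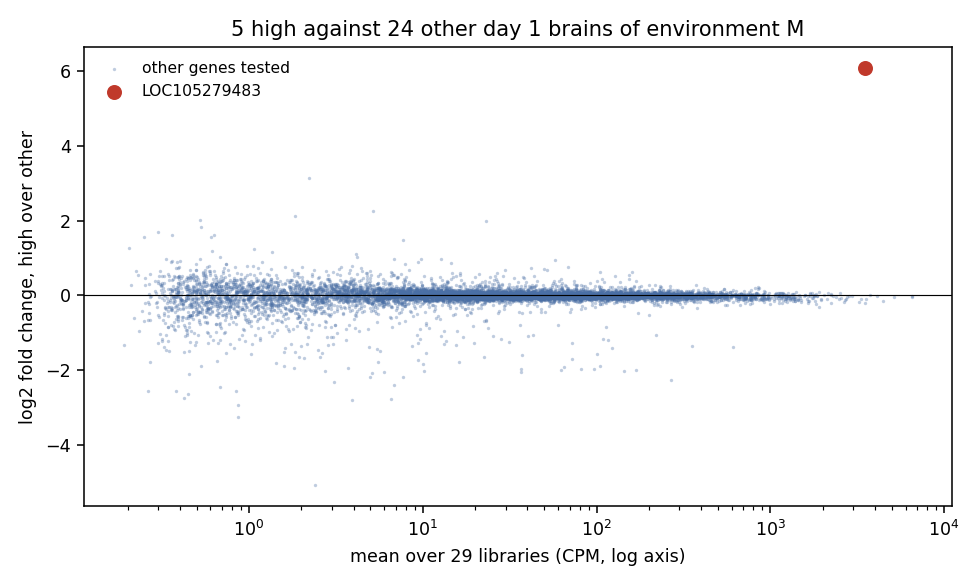
Log2 fold change of 5 high over 24 other brains (vertical axis) against the mean over the 29 brains (CPM, log axis), each point a gene. LOC105279483 lies at 6.07, and 0 of the other 9792 genes passed an adjusted p under 0.05.

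The 5 lowest p-values belonged to genes whose levels in high and other brains overlapped. LOC105281634 (chromosome 2, 5589243 to 5592957) stood at 6.32 CPM in BinM replicate 6, 19.5 CPM in BinM replicate 9, 46.9 CPM in MinM replicate 1, 3.77 CPM in MinM replicate 2 and 4.99 CPM in MinM replicate 18. The other brains ran from 1.68 CPM over a median of 5.05 to 16.2 CPM. Only 2 high brains lay above that range. Its log2 fold change was 1.49 ± 0.38 (SE, edgeR adjusted p = 0.9999), and 0.61 without MinM replicate 1.

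LOC105283785 (chromosome 5, 8393835 to 8397281) differed little in level. It stood at 5.49 and 5.39 CPM in BinM replicates 6 and 9 and at 5.77, 6.64 and 7.9 CPM in MinM replicates 1, 2 and 18. The other brains ran from 2.31 over a median of 4.75 to 7.9 CPM (log2 fold change 0.46 ± 0.16 SE, edgeR adjusted p = 0.9999). All 5 high brains lay above the median of the others, inside their range. The gene overlaps another on the opposite strand. In environment B it was higher at day 8 than at day 1 by a log2 fold change of 0.50 ± 0.12 (SE, edgeR adjusted p = 0.000351).

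The lncRNA LOC109610790 (chromosome 6, 433594 to 438393) stood at 0.101 to 0.461 CPM in the high brains (median 0.239) and at 0.238 to 1.23 CPM in the others (median 0.544). Its log2 fold change was -1.27 ± 0.34 (SE, edgeR adjusted p = 0.9999). LOC113562750 (chromosome 10, 5876825 to 5884459) stood at 11.5 and 14.2 CPM in the BinM high brains and at 3.11, 5.28 and 4.53 CPM in the MinM high brains. The other brains ran from 1.55 to 15.2 CPM. Its levels in the high brains followed genotype, which the model takes out, leaving a log2 fold change of 0.56 ± 0.18 (SE, edgeR adjusted p = 0.9999). LOC105280746 (chromosome 8, 11724753 to 11727267) stood at 2.44, 2.4, 1.38, 0.302 and 0 CPM in the same order of brains and at 0 to 1.31 CPM in the others (median 0.277), so that 3 high brains lay above every other brain and 1 was at 0. This gene entered the test only through the filter that knew the state, and it was not tested under a filter blind to the state.

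**Figure D5:**
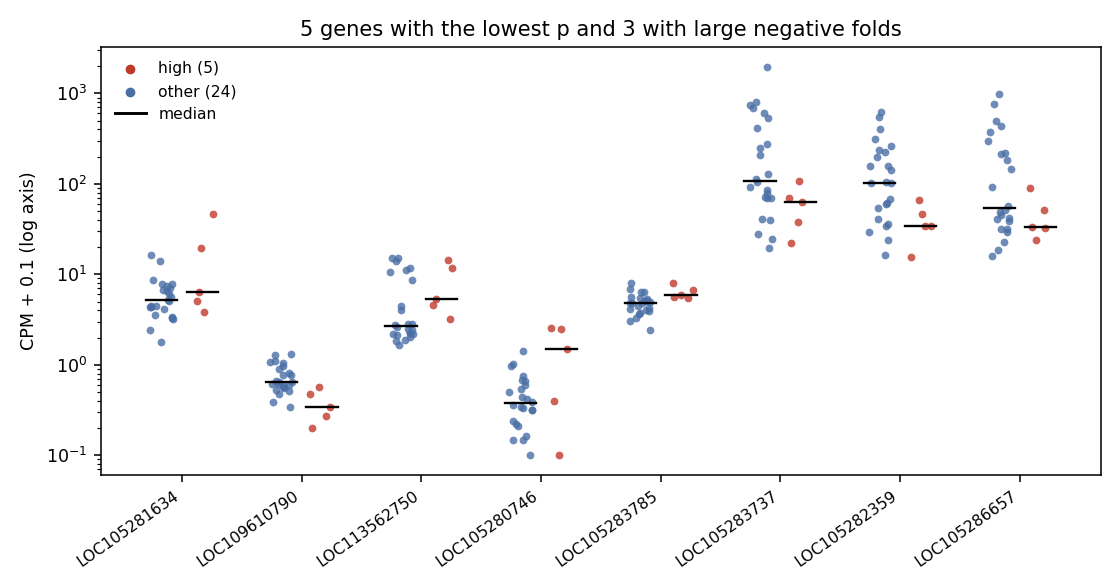
CPM plus 0.1 (log axis) in 24 other and 5 high day 1 brains of environment M, each point a brain and the black line the median, for the 5 genes with the lowest p and for 3 of the genes with the most negative fold changes. High and other brains overlap in all 8 genes, and the 3 genes on the right vary over a wide range among the other brains.

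Point estimates of edgeR leaned to lower levels in high brains. A log2 fold change of -1 or less was estimated for 128 genes and one of 1 or more for 19, while the median over all 9792 genes was -0.01. With limits chosen after the values were seen (unadjusted p under 0.05, mean of at least 1 CPM, log2 fold change of at least 1.5 in size), 24 genes were lower and 3 higher in high brains, and edgeR's adjusted p was 0.9999 for each. The 24 genes, of 9792 tested, lay on 9 chromosomes. Some of them peaked in the same other brains. LOC105283737, LOC105282359 and LOC105286657 stood at 1970, 617 and 766 CPM in MinM replicate 14. In MinM replicate 19 they stood at 689, 547 and 998 CPM. The 24 therefore cannot be taken as separate observations, and how far they move together was not tested. In 20 of the 24 all 5 high brains were below the median of the others. The genes were picked for low levels in these same brains, so that count is a description and shows no agreement among them. In 15 of the 24 all 5 were inside the range of the others, so in the remaining 9 at least 1 high brain lay outside it.

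LOC105282359 (chromosome 7, 8884674 to 8894187) is an example of these genes. It stood at 65.7 and 46.7 CPM in BinM replicates 6 and 9 and at 15.3, 33.9 and 34.3 CPM in MinM replicates 1, 2 and 18. The others ran from 16.2 over a median of 103 to 617 CPM, so that 1 high brain lay just below their range (log2 fold change -2.01 ± 0.77 SE, edgeR adjusted p = 0.9999). LOC105283737 (chromosome 10, 7969548 to 8012205) stood at 108, 62.3, 22.4, 38.2 and 70 CPM in the same order. The others ran from 19.6 over a median of 108 to 1970 CPM (log2 fold change -2.27 ± 0.99 SE, edgeR adjusted p = 0.9999). Each of these genes overlaps another on the same strand, so their counts may include shared reads. LOC105278758 and LOC105282008, which overlap no other gene, had estimates of -1.97 and -1.79.

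These 24 genes were set beside age in the 43 libraries raised with lineage B, none of which is among the 29. There 2888 of 9586 genes were higher at day 8 (30.1%) and 2902 lower (30.3%) by edgeR. The even split depended on TMM scaling, since scaling by library totals gave more higher than lower genes. Of the 24 genes, 10 were lower at day 8, 0 were higher and 14 were not called. LOC105282359 was lower at day 8 by a log2 fold change of -2.06 ± 0.65 (SE, edgeR adjusted p = 0.00577), and LOC105278692 by -5.53 ± 0.62 (SE, edgeR adjusted p = 2.85e-10). The share was not tested, since the genes were picked for their fold changes.

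The genes that changed most with age were read in the high brains. Over the 100 genes with the largest decreases by day 8 in environment B, the mean log2(CPM + 1) ran from 1.89 to 3.17 in the high brains (median 2.78). In the other 24 brains it ran from 1.38 to 4.32 (median 2.90), and in the day 8 brains of environment B from 0.65 to 1.05. Over the 100 largest increases the high brains ran from 1.35 to 1.96 (median 1.64) and the others from 1.32 to 2.12 (median 1.53), with day 8 brains at 2.78 to 3.51. All 5 high brains thus lay within the span of the other day 1 brains and apart from day 8. The median log2 fold change of high over other brains was -0.52 for the 100 decreasing genes and 0.13 for the 92 increasing genes tested, both in the direction of day 8, against -0.01 over all genes. Among all genes, estimates of -1 or less numbered 128 and those of 1 or more 19. The median over all genes is thus not a matched baseline, and a shift with age was not tested. LOC105279814 went the other way, at 0.96 in high over other brains and -1.52 for day 8 over day 1 in environment B. Of the 100 and the 92, edgeR called 0, and 5 and 3 had an unadjusted p under 0.05, where the share over all genes was 1.64%.

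Of the largest positive estimates, those of LOC105281428 and LOC105286382 rested on a single brain, BinM replicate 9. Among genes that averaged 10 CPM or more, LOC105281428 (chromosome 3, 2381992 to 2395567) had the largest, a log2 fold change of 1.99 ± 1.07 (SE, edgeR adjusted p = 0.9999). It stood at 208 CPM in BinM replicate 9 and at 3.83 to 12.9 CPM in the other 4 high brains, and it reached 151 CPM among the other brains. Without BinM replicate 9 its log2 fold change was -0.75, and with the genotype M libraries alone it was -1.80. LOC105286382 (0.87 ± 0.89 SE) stood at 62.7 CPM in BinM replicate 9 and at 1.79 to 10 CPM in the other 4 high brains. It reached 63.5 CPM among the other brains, and its estimate was also negative without BinM replicate 9. LOC105279814 stood at 28.6 and 31.6 CPM in the BinM high brains and 24.1 CPM in MinM replicate 1, all above the 21.9 CPM of the highest other brain, but at 4.37 and 11.8 CPM in MinM replicates 2 and 18. Its log2 fold change was 0.96 ± 0.36 (SE, edgeR adjusted p = 0.9999), and it was 0.09 with the genotype M libraries alone. LOC105281685 and LOC105283216 reached 159 and 187 CPM in MinM replicate 1, against at most 175 and 163 CPM in the other brains.

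Further genes with isolated high values were few in the high brains. A gene was counted as isolated in a brain where it reached at least 10 CPM and at least 10 times its median over the 29 brains (medians under 0.1 CPM taken as 0.1). Apart from LOC105279483, the high brains held 0 to 4 such genes (median 2) and the other brains 0 to 40 (median 1.5). The largest numbers, 40 and 20, belonged to MinM replicates 19 and 14, which were not high. No gene was isolated in more than 2 of the 5 high brains. LOC113563270, in both BinM high brains at 31.1 and 27 CPM, was so in all 7 other BinM brains as well, a gene whose widest gap separated the genotypes. LOC105279459 was isolated in MinM replicates 1 and 2 (11.2 and 11.8 CPM) and in 3 other brains, up to 19.5 CPM. LOC105286419 reached 20.6 CPM in MinM replicate 1 and at most 4.88 CPM in other brains. MinM replicate 18 held no isolated gene apart from LOC105279483.

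The high state was not seen to differ between genotypes in its other genes. The interaction of state and genotype called 0 of 10054 genes (0%) by edgeR and 0 by limma-voom, with 354 (3.52%) and 330 at an unadjusted p under 0.05. With 2 and 3 high brains, its intervals were wide, and they lay within 2-fold for 66.4% of genes. The lowest p was that of LOC105280573 (log2 difference -4.39 ± 1.03 SE, edgeR adjusted p = 0.9998), which stood at 5.19 and 11.5 CPM in the BinM high brains and at 1.66 to 2.6 CPM in the MinM high brains. In the other brains it ran from 0.131 to 1.62 CPM in BinM and from 1.42 to 14.1 CPM in MinM.

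The high brain of day 8 gave a view outside the 29 libraries. Fitted against the other 45 brains of that age with a term per group, it had 0 of 10567 genes called by edgeR (LOC105279483 and the gene inside it not counted), and 236 with an unadjusted p under 0.05 (2.23%). A single brain was assumed to vary like the others, and its intervals were wide. Among the 5 genes with the lowest p at day 1, the sign was the same for LOC105280746 (log2 fold change 1.08 ± 2.01) and LOC105283785 (0.21 ± 0.43). It was the opposite for LOC105281634 (-1.29 ± 1.22), LOC109610790 (0.18 ± 0.88) and LOC113562750 (-0.12 ± 0.37, SE, edgeR adjusted p = 1 for each). With 1 brain, whether these estimates recurred could not be shown.

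With all 96 libraries, 6 high brains were set against 90 with a term for each of the 8 groups. EdgeR again called 0 of 10298 genes, with 177 at an unadjusted p under 0.05 (1.72%). This fit holds the 29 libraries and is not independent of the first. The lowest p-values were those of LOC105275688 (log2 fold change -0.23 ± 0.07), LOC105277280 (0.45 ± 0.14) and LOC105276265 (0.49 ± 0.16, SE, edgeR adjusted p = 0.9996 for each). LOC105275688, for example, stood at 14.6 to 19.6 CPM in the 5 day 1 high brains and at 16.3 to 25.3 CPM in the other day 1 brains of environment M, so the ranges overlapped.

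The genes most like LOC105279483 in rank order over the 29 brains did not share the size of its difference. By Spearman's correlation of CPM, the 5 highest were LOC105280867, LOC105279429, LOC105285348, LOC105283632 and LOC105284194. Because the brains fall into separate levels, the correlation is given for the 24 other brains alone, where it was 0.626, 0.394, 0.576, 0.781 and 0.684 in that order, as a description. LOC105283632 (chromosome 10, 484844 to 560462) had 636 CPM ± 73 in the high (SD, n = 5) and 634 CPM ± 71.8 in the other brains (SD, n = 24). LOC105284194 had 311 CPM ± 13.3 in the high and 312 CPM ± 29.1 in the other brains. Neither gene moved with the 68.3-fold difference of LOC105279483.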

How the data were processed

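RNA of 96 single brains was extracted with Tri reagent and made into stranded mRNA libraries with a KAPA kit, per the labels' protocols. The deposited file holds raw gene counts for 13755 features. STAR 2.7.8a and featureCounts are the tools named, per the submitters' processing notes. Use of strand in counting, treatment of multiply aligned reads and the genome build were not given in the sources used here. A RefSeq table (Obir_v5.4) gave chromosomes and gene classes for 13600 features. Library totals ran from 13.9 to 22.86 megacounts in the 29 libraries, and from 10.7 to 26.96 over all.

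CPM is counts over the library total. Tests used edgeR 4.0.16 (R 4.3.3): TMM scaling, filterByExpr (minimum count 10), robust quasi-likelihood fits with genotype as covariate, and Benjamini-Hochberg adjustment over all genes tested, with calls at 0.05. All adjusted p-values are edgeR's unless another tool is named. SE and 95% intervals of fold changes come from the F statistics. Depth was compared by exact permutation (scipy 1.17.1). DESeq2 1.42.0, limma-voom (limma 3.58.1), other scalings, filters and thresholds were tried. The procedure was tested on simulated data. Shares have exact (Clopper-Pearson) 95% intervals, and a share of 0 is limited by 3 counts of the total. Both cover counting error only.

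Members and lists were chosen with earlier results of these data known. Genes named were the 5 lowest p-values, since none was called, with the neighbours of LOC105279483, the 5 genes most like it by rank and, chosen after values were seen, the genes with the largest estimates. Planned lists of cell type markers were void, as no product names were given. No 2 libraries of a group were alike within sampling noise (lowest chi-square per gene 9.08).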

Additional observations from a re-analysis of the deposited data

Results flagged for a closer look

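A brain was singled out where its distance to the nearest of its group exceeded Dixon's limit for groups of 4 to 10, a limit that chance passes in about 1 in 20 groups. Of 36 groups of values examined, 7 were singled out, and all 7 concern BinM replicate 9, a high brain. In it LOC105281428 stood at 208 CPM, where the next of the 5 high brains had 12.9 CPM and the next BinM brain 15.6 CPM. LOC105286382 stood at 62.7 CPM, against 10 CPM in the next high brain and 10.9 CPM in the next BinM brain. Among BinM brains alone, LOC105281634 stood at 19.5 CPM (next 8.49), LOC105281685 at 139 CPM (next 71) and LOC105283216 at 95 CPM (next 51.8). All 7 values come from the same brain, and the 2 kinds of group overlap, so they are not separate events. These genes were named for a low p-value or a large positive estimate in the high brains. A high value in a high brain is partly why they were examined, so 7 of 36 cannot be set against 1 in 20.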

How the results depend on the processing

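The count of 0 called genes was the same in all 22 alternatives tried. These were other scalings, tools, filters, thresholds of 500 and 2000 CPM (which chose the same 5 brains), a continuous term, other sets of libraries and the replicate block. Of them, the fit with genotype B alone, the fit with all 96 libraries and the fit without the library that stood apart were chosen after seeing the data. Genes at an unadjusted p under 0.05 numbered 79 to 566, the highest with genotype B alone. Leaving out each high brain gave 0 calls each time, with 79 (without MinM replicate 1) to 341 (without MinM replicate 2) such genes against 161. With title numbers as a replicate block 0 genes were called and 495 had an unadjusted p under 0.05. Whether same-numbered BinM and MinM brains pair was not settled. Their correlations of deviations ran from -0.447 to 0.419 and were over 0.1 in 5 of 9, and differently numbered brains were not compared. Under that block the estimate of LOC105283785 was 0.03 against 0.46, and that of LOC113562750 was 0.10 against 0.56.

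Of 15 named genes over these alternatives, 0 were called and 2 changed sign. LOC105286382 went from 0.87 to -0.22 with limma-voom, -2.01 with genotype M alone and -0.88 without BinM replicate 9 (up to 1.40 without another high brain). LOC105281428 went from 1.99 to -1.80 with genotype M alone and -0.75 without BinM replicate 9 (up to 2.57 without another). Without single high brains the difference in library total ran from -0.145 (without MinM replicate 2) to 0.636 megacounts against 0.349 with all and in genes with a count from 59.7 to 105 against 79.4 with all. With age, LOC105279483 went from 1.27 to -0.67 (log2) without MinB day 8 replicate 7. With library totals, 4288 genes were higher and 1935 lower at day 8, against 2888 and 2902 with TMM, so the split by direction shifted with the scaling. Counts of calls for age (5725 to 6337, against 5790) and for the interaction (0 in each) stayed within 1.5-fold. No day 1 brain of environment B was high, so the comparison within that environment and the interaction of state and environment were not run.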

Other observations

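Beside LOC105279483, 3 genes had a gap of at least 2 on the log2(CPM + 1) scale that did not separate the genotypes. In each, 2 MinM brains stood above the rest, and none of the 5 high brains was among them. They were LOC105285601 (18.8 CPM or more against 1.44 or less), LOC105287262 (13.1 against 1.55) and LOC105276730 (22.9 against 4.49). Among the 5 gaps that separated the genotypes, LOC113563300 stood at 159 CPM or more in all 20 MinM brains and at 19 CPM or less in BinM, and LOC113562974 at 15.1 CPM or more against 1.19 or less.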
